A study of Mus musculus with 11 samples.

Results

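The genes described here are 34 mouse genes of glycolysis and of the transcriptional response to low oxygen, read from the 42375 named genes of a deposited RNA sequencing count table. They were taken by name, for what the genes are known to do, by a rule that uses no measured value. The choice was nevertheless made with earlier results of these data known. All 34 were found under these names, and all 34 were among the 15024 genes that passed a filter on low counts. By role they are the glucose carrier Slc2a1 and the hexokinases Hk1, Hk2 and Hk3, which bring glucose into the pathway; Gpi1, the phosphofructokinase subunits Pfkl, Pfkm and Pfkp, the aldolases Aldoa and Aldoc, and Tpi1, which make up upper glycolysis; and the regulatory enzymes Pfkfb3 and Pfkfb4. Lower glycolysis is covered by Gapdh, Pgk1, Pgam1, Eno1 and Pkm. Ldha, Ldhb, Slc16a1 and Slc16a3 make and carry lactate, and Pdk1 and Pdk3 hold back pyruvate oxidation. The oxygen-sensing system is represented by Hif1a with the prolyl hydroxylase genes Egln1 and Egln3, and by 7 other known targets of HIF-1, Bnip3, Vegfa, Ndrg1, P4ha1, Ddit4, Ankrd37 and Adm.

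The cells were bone marrow derived macrophages of C57BL/6 mice, which are grown in culture from marrow cells and are labelled as M0, the usual name for unpolarised cells, or M1, the usual name for cells driven to an inflammatory state. All cells received a gapmer for 16 hours, a DNA strand flanked by modified nucleotides, which makes RNase H cut its RNA partner. It was either the control labelled NS or one against the long noncoding RNA MERRICAL, labelled KD. The 11 libraries form 4 groups, M0 NS (libraries 1, 2 and 4), M0 KD (1, 2 and 4), M1 NS (1, 2 and 4) and M1 KD (5 and 6), so every group carries a gapmer and none is free of one. The stimulus behind the M1 label, the meaning of the library numbers and the origin of the replicates are not stated in the labels. The p-values therefore speak only of how these libraries scatter, and that scatter may be technical. In M1 the numbers 5 and 6 occur only with KD and the numbers 1, 2 and 4 only with NS, so what the numbers stand for and the gapmer cannot be told apart there. No row of the table is named MERRICAL, so whether the gapmer lowered its target was not analysed here.

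Glycolysis splits glucose into pyruvate and yields ATP without oxygen, and lactate dehydrogenase turns the pyruvate into lactate, which leaves the cell through monocarboxylate transporters. HIF-1 is a transcription factor whose alpha subunit is hydroxylated by prolyl hydroxylases when oxygen is present and is then destroyed; when oxygen falls, it accumulates and switches on glycolytic genes, Vegfa and its own hydroxylase Egln3. In macrophages, inflammatory signals are known to raise HIF-1 alpha and glycolysis even when oxygen is plentiful, and a glycolytic metabolism is a known trait of the M1 state.

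Total counts ran from 30040632 to 43250392 per library. The M1 label fitted its markers: 10 of 10 M1 activation genes such as Nos2 and Il12b rose in M1 NS against M0 NS, and their summed level went from 223–367 CPM (counts of a library scaled to a common total, after TMM adjustment) in M0 NS to 18188–20185 CPM in M1 NS. All 10 macrophage markers were detected in every group. Their sum was 26430–27966 CPM in M0 NS, 19947–21820 in M0 KD, 14068–16295 in M1 NS and 15659–18724 in M1 KD. This sum is weighted to the most abundant markers. Of the 10, 5 were called higher and 4 lower in M1 NS against M0 NS, with a median log2 change of 0.22. In M1 KD against M1 NS, 3 were called higher and 2 lower. Neutrophil and precursor markers, 10 of 10 detected, summed to 1294–2271 CPM in M0 NS, 726–748 in M0 KD, 240–313 in M1 NS and 206–225 in M1 KD. The 8 T and NK cell markers summed to 12.9–22.2 CPM in M0 NS, 9.04–19.8 in M0 KD, 1.43–3.92 in M1 NS and 8.01–10.4 in M1 KD; of the 2 tested, Cd4 was called lower in M1 NS and higher in M1 KD, and Cd8a was higher in M1 NS. Their defining genes Cd3d, Cd3e and Cd3g stood below 1 CPM in each group mean, and Klrb1c had no count in M1 NS. The 6 B cell markers summed to 4.94–5.81, 4.04–4.35, 0.659–1.15 and 1.32–1.54 CPM in the same order; of the 4 tested, Cd79b was called lower in M1 NS and higher in M1 KD. Erythroid and megakaryocyte markers, 7 of 8 of them matched, summed to 231–319 CPM in M0 NS, 198–267 in M0 KD, 27.3–70.9 in M1 NS and 147–155 in M1 KD; Pf4 and Ppbp were called lower in M1 NS, and Pf4 was called higher in M1 KD. Mitochondrially encoded genes took 1.02–1.14% of counts in M0 NS, 1.28–1.45% in M0 KD, 0.488–0.891% in M1 NS and 0.522–0.727% in M1 KD. The part of these differences in the results that follow was not tested.

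HIF-1 binds DNA at a short core, ACGTG or GCGTG, so the 250 bases before each annotated start in the RefSeq promoter table (build GRCm38.p6) were searched for these letters on both strands. The table held 47 windows for 33 of the 34 genes, with none for Ndrg1. At least 1 match was present in 39 windows (83.0%) and in 31 genes (93.9%), and no window of Tpi1 or Gpi1 held one. Among all genes past the filter the letters were present in 53.6% of 13246 windows, and in the whole table in 38.6% of 32851 windows. Counted by gene, these shares were 59.4% of 10404 genes and 41.5% of 27025 genes. The windows of the 34 genes were also richer in G and C, with a median of 61.6% against 59.2% and 52.4%, and both cores hold 3 or more such letters in 5. The 34 genes were chosen in part as known HIF-1 targets, so their higher share is not independent of that choice. Some windows of Eno1, Aldoa and Pfkm overlap, so the same match counts in more than 1 window. A match is a string of letters, not a measured binding site. Below, 6 windows free of annotated exons are shown as examples. Capitals mark the matches, and matches that overlap, as in CACGTG, form 1 stretch.
Ldha, chr7:46845554-46845803, plus strand: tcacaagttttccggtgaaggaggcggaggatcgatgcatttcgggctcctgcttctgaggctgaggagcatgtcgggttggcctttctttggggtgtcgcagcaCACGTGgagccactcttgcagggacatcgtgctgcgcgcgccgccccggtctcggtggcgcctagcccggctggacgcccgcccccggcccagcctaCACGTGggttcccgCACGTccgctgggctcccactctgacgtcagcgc
Pgk1, chrX:106186850-106187099, plus strand: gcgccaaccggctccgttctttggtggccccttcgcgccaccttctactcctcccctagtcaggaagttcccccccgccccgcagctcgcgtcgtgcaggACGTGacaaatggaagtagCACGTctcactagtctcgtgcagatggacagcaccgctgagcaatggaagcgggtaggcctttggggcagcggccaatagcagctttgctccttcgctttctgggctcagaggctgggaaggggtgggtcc
Hif1a, chr12:73907617-73907866, plus strand: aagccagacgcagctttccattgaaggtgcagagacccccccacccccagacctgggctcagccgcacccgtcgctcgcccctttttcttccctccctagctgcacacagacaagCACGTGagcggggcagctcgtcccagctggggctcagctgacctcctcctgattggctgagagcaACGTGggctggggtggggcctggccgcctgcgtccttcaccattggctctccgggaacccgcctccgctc
Egln3, chr12:54203875-54204124, minus strand: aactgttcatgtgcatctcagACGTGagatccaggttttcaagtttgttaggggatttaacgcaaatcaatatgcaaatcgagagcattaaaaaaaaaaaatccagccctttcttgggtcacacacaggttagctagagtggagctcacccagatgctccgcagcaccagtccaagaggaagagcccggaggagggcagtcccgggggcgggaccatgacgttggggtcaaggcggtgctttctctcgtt
Hk3, chr13:55021386-55021635, minus strand: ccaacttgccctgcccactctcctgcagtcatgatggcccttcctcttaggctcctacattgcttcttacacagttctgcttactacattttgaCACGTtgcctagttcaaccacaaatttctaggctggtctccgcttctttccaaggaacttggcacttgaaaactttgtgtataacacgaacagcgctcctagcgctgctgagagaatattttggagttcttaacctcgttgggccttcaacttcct
Vegfa, chr17:46032378-46032627, minus strand: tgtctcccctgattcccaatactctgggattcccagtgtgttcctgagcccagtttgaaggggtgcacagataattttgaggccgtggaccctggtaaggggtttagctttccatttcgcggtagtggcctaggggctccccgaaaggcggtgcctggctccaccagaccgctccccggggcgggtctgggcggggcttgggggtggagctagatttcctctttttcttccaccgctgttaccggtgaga
The Ldha window holds 3 stretches, those of Pgk1 and Hif1a hold 2, and those of Egln3 and Hk3 hold 1. The Vegfa window shown has none of these letters; a second Vegfa window in the table, chr17:46025164-46025413, holds 2 stretches and is not shown because 218 of its bases lie in annotated exons. Vegfa therefore counts among the 31 genes with a match. The Pdk3 and Ddit4 windows hold 4 and 2 stretches, and 51 and 64 of their bases lie in annotated exons, so they are not shown. The windows shown are thus no sample of the genes that rose or fell in the results below.

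**Figure D1:**
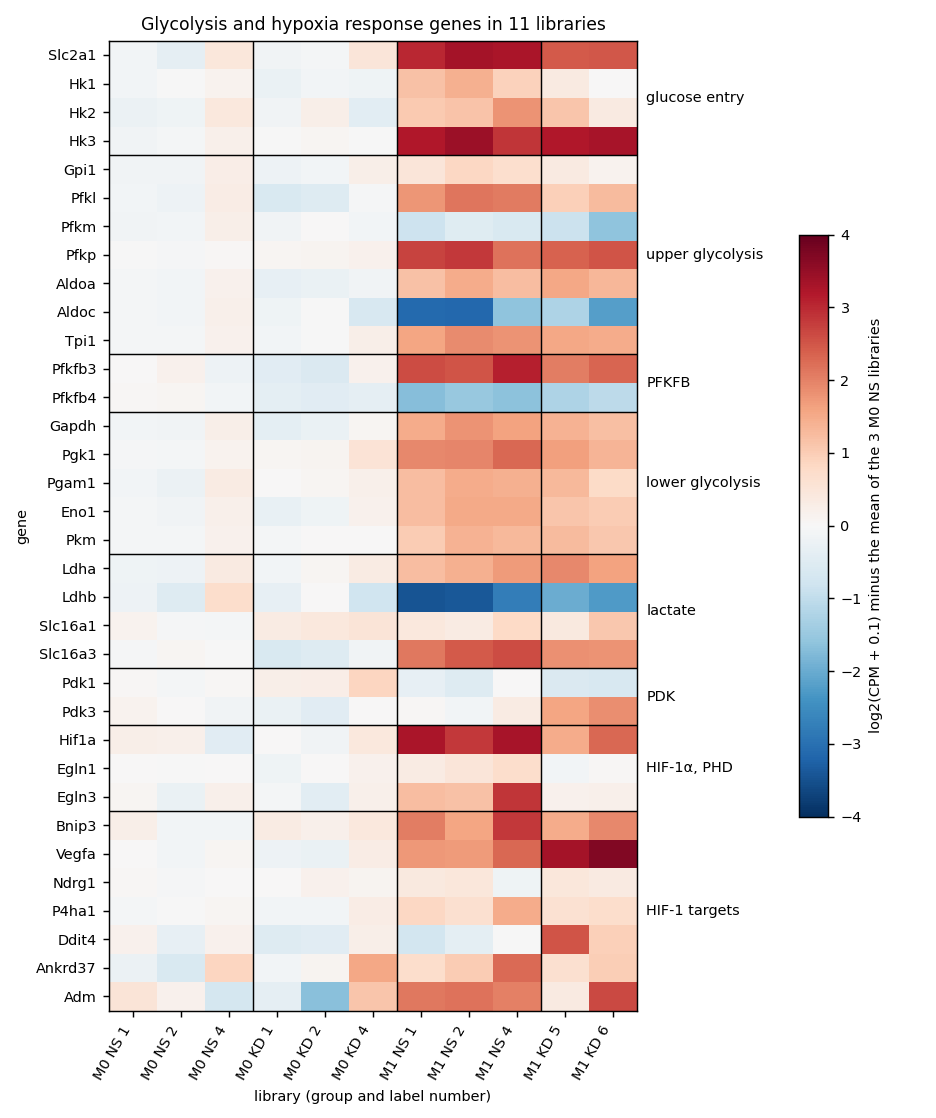
Heat map of the 34 genes (rows, grouped by role) in the 11 libraries (columns). Colour gives log2(CPM + 0.1) in a library minus the mean of the 3 M0 NS libraries, from -4 (blue) to 4 (red). The M0 columns are pale for both gapmers, whereas most rows are red in all 5 M1 columns and Aldoc, Ldhb and Pfkfb4 are blue there.

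The comparison of M1 NS with M0 NS shows how far the M1 state, under the control gapmer, moved these genes. Of the 34 genes, 26 rose and 4 fell (Ldhb, Aldoc, Pfkfb4 and Pfkm), while Pdk1, Pdk3, Ndrg1 and Ddit4 did not pass the test. Glucose entry, the common glycolytic enzymes, lactate export and Hif1a rose together. The 34 genes summed to 6180–7525 CPM in M0 NS and to 19039–22095 CPM in M1 NS, which is 0.677–0.871% and 1.59–1.93% of all counts. Genes were called at an adjusted p under 0.05 in edgeR's quasi-likelihood test, with Benjamini-Hochberg adjustment over all 15024 genes. By the same rule 26.9% of all genes were higher, 28.6% were lower and 55.5% were called in either direction, against 26, 4 and 30 of the 34. The median log2 change was 1.38 for the 34 genes and -0.04 for all genes. CPM ranges of the 3 and 3 libraries did not overlap for 29 of the 34 genes, against 61.4% of all genes. With library totals alone as the scale, the median of all genes shifted to -0.42, the split of all genes became 2348 higher and 6447 lower, and that of the 34 genes 21 and 5. With upper-quartile scaling that median was -0.16, and the 34 genes split into 24 and 4. The sums of neutrophil, erythroid and megakaryocyte, T and NK and B cell markers were all lower in each M1 NS library than in each M0 NS library. The dendritic cell marker sum was higher in each, and the fibroblast and stromal sums overlapped. The part of these marker differences in this comparison was not tested. In bulk RNA, fewer cells of a type and less RNA per cell cannot be told apart.

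Gene positions are given on GRCm38 and span the whole annotated gene. Slc2a1 (chr4:119108711-119137983), the main glucose carrier of most cells, had 39.6, 33.8 and 59.5 CPM in M0 NS libraries 1, 2 and 4 and 348, 437 and 417 CPM in M1 NS libraries 1, 2 and 4. Every M1 library lay far above every M0 library, and the gene rose from 44.3 ± 13.5 to 401 ± 46.8 CPM (mean ± SD over 3 libraries; log2 change 3.18 with SE 0.24, adjusted p = 3.9e-07). Hexokinases trap glucose in the cell as glucose 6-phosphate. Hk3 (chr13:55005985-55021385), an isoform prominent in myeloid cells, had 248, 256 and 313 CPM in M0 NS and 2479.9, 2897 and 1952 CPM in M1 NS. Its ranges were wide apart, and it rose from 272 ± 35.4 to 2443 ± 473 CPM (log2 change 3.17 with SE 0.18, adjusted p = 5.26e-08). Hk1 (chr10:62268855-62379908), the widely expressed isoform that sits on mitochondria, had 102, 110.2 and 121 CPM in M0 NS and 250.4, 298 and 212 CPM in M1 NS. It rose without overlap by a log2 change of 1.19 with SE 0.15, adjusted p = 2.98e-05. Hk2, the inducible isoform and a known HIF-1 target, rose from 74.3 ± 19.5 to 186 ± 56 CPM (log2 change 1.33 with SE 0.27, adjusted p = 0.0012). All 4 genes of glucose entry thus passed the test upward.

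In upper glycolysis, 5 of 7 genes rose and 2 fell. Phosphofructokinase makes the committed step and is built from liver (Pfkl), muscle (Pfkm) and platelet (Pfkp) type subunits. Pfkp (chr13:6579768-6648777) had 74.5, 72.9 and 76.3 CPM in M0 NS and 485, 526 and 333 CPM in M1 NS, and it rose by 2.59 on the log2 scale (SE 0.17, adjusted p = 1.32e-07). Its exons overlap those of Pitrm1 on the opposite strand over 748 bases, and the strand setting of the counting is not stated, so reads in that stretch cannot be assigned. Pfkl (chr10:77986947-78010083) had 91, 85.7 and 120.2 CPM in M0 NS and 332, 429 and 415 CPM in M1 NS. It rose without overlap (log2 change 1.99 with SE 0.20, adjusted p = 4.19e-06). Pfkm (chr15:98092589-98132451) went the other way, from 12.1, 12.2 and 15.6 CPM in M0 NS to 7.34, 9.46 and 8.54 CPM in M1 NS. Its ranges did not overlap and its level fell (log2 change -0.65 with SE 0.19, adjusted p = 0.012), but the call was lost without M0 NS 4 (adjusted p = 0.0554) or M1 NS 1 (adjusted p = 0.0545), with adjusted p of 0.000873 to 0.0911 over its 24 alternatives.

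Aldolase cleaves fructose 1,6-bisphosphate into triose phosphates. Aldoc (chr11:78322968-78327781), the isoform best known from brain, had 13.2, 13.1 and 16.1 CPM in M0 NS and 1.54, 1.5 and 4.56 CPM in M1 NS. It fell in every M1 library, less in library 4 than in the others (log2 change -2.46 with SE 0.40, adjusted p = 0.000208). Aldoa, the ubiquitous isoform, rose from 908 ± 91.2 to 2244 ± 248 CPM (log2 change 1.30 with SE 0.15, adjusted p = 1.62e-05). Triose phosphate isomerase, Tpi1, rose by 1.75 (SE 0.15) and glucose phosphate isomerase, Gpi1, by 0.65 (SE 0.17) on the log2 scale. The Gpi1 call was lost with library totals alone as the scale (log2 change 0.26, adjusted p = 0.242; 0.000325 to 0.242 over its 24 alternatives).

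The PFKFB enzymes make and break down fructose 2,6-bisphosphate, the strongest activator of phosphofructokinase, and the 2 measured here moved in opposite directions. Pfkfb3 (chr2:11471433-11554077), the isoform with the highest kinase activity, had 73.9, 82.1 and 62.7 CPM in M0 NS and 443, 413 and 627 CPM in M1 NS. All 3 M1 libraries stood several times above the M0 libraries (log2 change 2.76 with SE 0.23, adjusted p = 1.18e-06). Pfkfb4 (chr9:108991778-109032228), also a known HIF-1 target, had 75.1, 75.6 and 66.6 CPM in M0 NS and only 22.1, 25.1 and 23.1 CPM in M1 NS. It fell with little spread in either group (log2 change -1.63 with SE 0.11, adjusted p = 1.74e-07).

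Lower glycolysis, which recovers ATP, rose at each of its 5 genes. Pgk1 (chrX:106187100-106203699), the first ATP-making step, had 269.9, 261 and 304 CPM in M0 NS and 1048, 1085 and 1356 CPM in M1 NS. It had the largest log2 change of these 5 (2.06 with SE 0.18, adjusted p = 1.34e-06), and its ranges were far apart. Gapdh, often used as a reference gene, rose from 804 ± 124 to 2491 ± 265 CPM (log2 change 1.63 with SE 0.18, adjusted p = 9.11e-06). Pgam1 (1.37), Eno1 (1.41) and the pyruvate kinase gene Pkm (1.24) rose by similar log2 changes, with SE of 0.18, 0.17 and 0.16. Named copies of these genes (Eno1b, Pgk1-rs7, Pgam1-ps2 and Aldoart1) stayed at or below 2.90 CPM in every library. How reads shared with unnamed copies were treated is not stated in the labels.

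At the lactate step the subunit genes parted. Ldha, the muscle type subunit that favours lactate, rose from 442 ± 99.6 to 1201 ± 200.4 CPM (log2 change 1.44 with SE 0.20, adjusted p = 7.25e-05). Ldhb (chr6:142490249-142507957), the heart type subunit, had 15.8, 12.7 and 29.9 CPM in M0 NS and 1.57, 1.62 and 2.58 CPM in M1 NS. It had the largest fall of the 34 genes (log2 change -3.33 with SE 0.35, adjusted p = 6.73e-06), and M0 library 4 stood well above the other M0 libraries. Slc16a3 (chr11:120948480-120960868), which encodes the lactate exporter MCT4, had 71, 76.6 and 71.5 CPM in M0 NS and 312, 403 and 443 CPM in M1 NS. No library of one group came near the other (log2 change 2.40 with SE 0.17, adjusted p = 2.21e-07). Slc16a1 (MCT1), a carrier in both directions, rose only from 8.12, 7.16 and 6.92 CPM to 9.92, 9.26 and 12.8 CPM (log2 change 0.53 with SE 0.19, adjusted p = 0.0315), and the call was lost without M0 NS 2, M0 NS 4 or M1 NS 4 (adjusted p = 0.0857, 0.09 and 0.101; 0.0132 to 0.542 over its 24 alternatives). It was lost as well with upper-quartile scaling and with library totals alone as the scale.

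Pyruvate dehydrogenase kinases switch off the entry of pyruvate into the mitochondrial cycle. Neither member passed the test between the states. Pdk1 (chr2:71873224-71903858), a known HIF-1 target, had 49.7, 45.1 and 49.5 CPM in M0 NS and 38.1, 33.7 and 49 CPM in M1 NS (log2 change -0.26 with SE 0.18, adjusted p = 0.237); with library totals alone as the scale it was called lower (log2 change -0.64, adjusted p = 0.0147; 0.0147 to 0.54 over its 24 alternatives), as it was without the 3 libraries numbered 4, an alternative chosen after seeing the data (log2 change -0.38, adjusted p = 0.0189). Pdk3 (chrX:93764607-93832201) had 18.1, 16.6 and 15 CPM in M0 NS and 17.2, 15.2 and 20.8 CPM in M1 NS (log2 change 0.10 with SE 0.16, adjusted p = 0.615). The groups overlapped for both genes.

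Hif1a (chr12:73901375-73947530), the gene of the oxygen-regulated subunit, had 152, 150.1 and 95.9 CPM in M0 NS and 1257, 919 and 1266 CPM in M1 NS. Even the lowest M1 library stood several times above the highest M0 library, and the mean rose from 133 ± 32 to 1147 ± 198 CPM (log2 change 3.11 with SE 0.27, adjusted p = 1.42e-06). Egln3 (chr12:54178981-54203860), the hydroxylase that HIF itself induces, had 2.28, 1.76 and 2.47 CPM in M0 NS and 5.15, 4.99 and 16.3 CPM in M1 NS. The groups did not overlap, but M1 NS 4 stood far above the other M1 libraries; the gene rose by 2.02 (SE 0.41, adjusted p = 0.00122) with it and by 1.23 (adjusted p = 0.00106) without it, with adjusted p of 1.85e-12 to 0.00725 over its 24 alternatives. Egln1 (chr8:124908587-124949324), the main oxygen sensor of most cells, had 42.4, 40.7 and 41.6 CPM in M0 NS and 51.7, 57.6 and 67.1 CPM in M1 NS. It rose by a smaller amount (log2 change 0.50 with SE 0.13, adjusted p = 0.00506), and its call was lost with library totals alone as the scale (adjusted p = 0.494; 0.00039 to 0.494 over its 24 alternatives).

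Among the other HIF-1 targets, 5 of 7 rose. Vegfa (chr17:46016993-46032369), the growth factor of blood vessels, had 85.1, 77.1 and 89.1 CPM in M0 NS and 280.2, 275 and 412 CPM in M1 NS (log2 change 1.94 with SE 0.21, adjusted p = 7e-06). Bnip3, a receptor for the removal of mitochondria, rose from 22.6 ± 3.24 to 106 ± 47.1 CPM (log2 change 2.23 with SE 0.26, adjusted p = 1.75e-05), and P4ha1, a subunit of collagen prolyl hydroxylase, rose by 1.02 (SE 0.20). Adm (adrenomedullin) and Ankrd37 were low, at 1.58 ± 0.0868 and 5.98 ± 3.76 CPM in M1 NS. Adm rose by 2.30 (SE 0.81, adjusted p = 0.0293), and the call was lost without M0 NS 2, M0 NS 4, M1 NS 1 or M1 NS 2 (adjusted p = 0.0687, 0.0996, 0.0598 and 0.0642; 6.26e-06 to 0.0996 over its 24 alternatives). Ankrd37 rose with overlapping ranges (log2 change 1.39 with SE 0.54, adjusted p = 0.0445), and the call was lost without M0 NS 1, M0 NS 2, M1 NS 2, M1 NS 4, M1 KD 5 or M1 KD 6 (log2 change 0.75 without M1 NS 4, and adjusted p = 0.14, 0.147, 0.0542, 0.255, 0.0627 and 0.0652; 3.19e-06 to 0.255 over its 24 alternatives). Library totals alone as the scale ended both the Adm and the Ankrd37 call, and upper-quartile scaling ended that of Ankrd37. Ankrd37 also shares 57 exonic bases with Ufsp2, which has a mean count of 1421 per library against 142 for Ankrd37, and 349 with Lrp2bp, both on the opposite strand. Ddit4 (chr10:59949669-59951834), a stress-induced inhibitor of mTORC1, had 10.2, 7.19 and 10.2 CPM in M0 NS and 5.41, 6.93 and 9 CPM in M1 NS, and the groups overlapped (log2 change -0.37 with SE 0.35, adjusted p = 0.39). Ndrg1, a growth-arrest gene, was not called either (log2 change 0.25 with SE 0.14, adjusted p = 0.165); it was called without M1 NS 4 (log2 change 0.43, adjusted p = 0.00255; 0.00255 to 0.487 over its 24 alternatives).

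In M0 cells, the MERRICAL gapmer was compared with the NS gapmer. None of the 34 genes was called by edgeR's quasi-likelihood test, and neither was any of the 15024 genes (0%). At an unadjusted p under 0.05 there were 4 of the 34 genes and 1947 of all genes. DESeq2 called 1 of the 34 genes, Pfkfb4, and 117 genes higher and 104 lower over all, whereas limma-voom and limma-trend called 0. A fit of only these 6 libraries called 545 genes higher and 558 lower, with Pfkfb4 the only 1 of the 34. The log2 changes ran from -0.44 to 0.59 with a median of -0.02, 16 above and 18 below 0, and the lowest adjusted p was 0.232. CPM ranges did not overlap for 6 of the 34 genes, against 35.1% of all genes. The 4 with the smallest unadjusted p are named here after their values were seen. Pfkfb4 had 54.6, 53.1 and 56.6 CPM in the 3 M0 KD libraries, below the lowest M0 NS library in each (log2 change -0.40 with SE 0.11, adjusted p = 0.232). Pdk1 had 57, 58.3 and 87.3 CPM, with library 4 far above the others (log2 change 0.49 with SE 0.18, adjusted p = 0.324). Slc16a3 had 47.6, 51.5 and 66 CPM (log2 change -0.41 with SE 0.16, adjusted p = 0.345) and Slc16a1 had 9.31, 10.0 and 10.5 CPM (log2 change 0.43 with SE 0.19, adjusted p = 0.375). Hif1a overlapped its M0 NS range, with 131, 119 and 173 CPM (log2 change 0.08 with SE 0.25, adjusted p = 0.898). A p that misses the threshold does not show that these levels were equal; with the SE of 0.25, a moderate difference in Hif1a was not detectable. Neutrophil markers were not called in this comparison, although their sum was lower in each M0 KD library than in each M0 NS library.

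**Figure D2:**
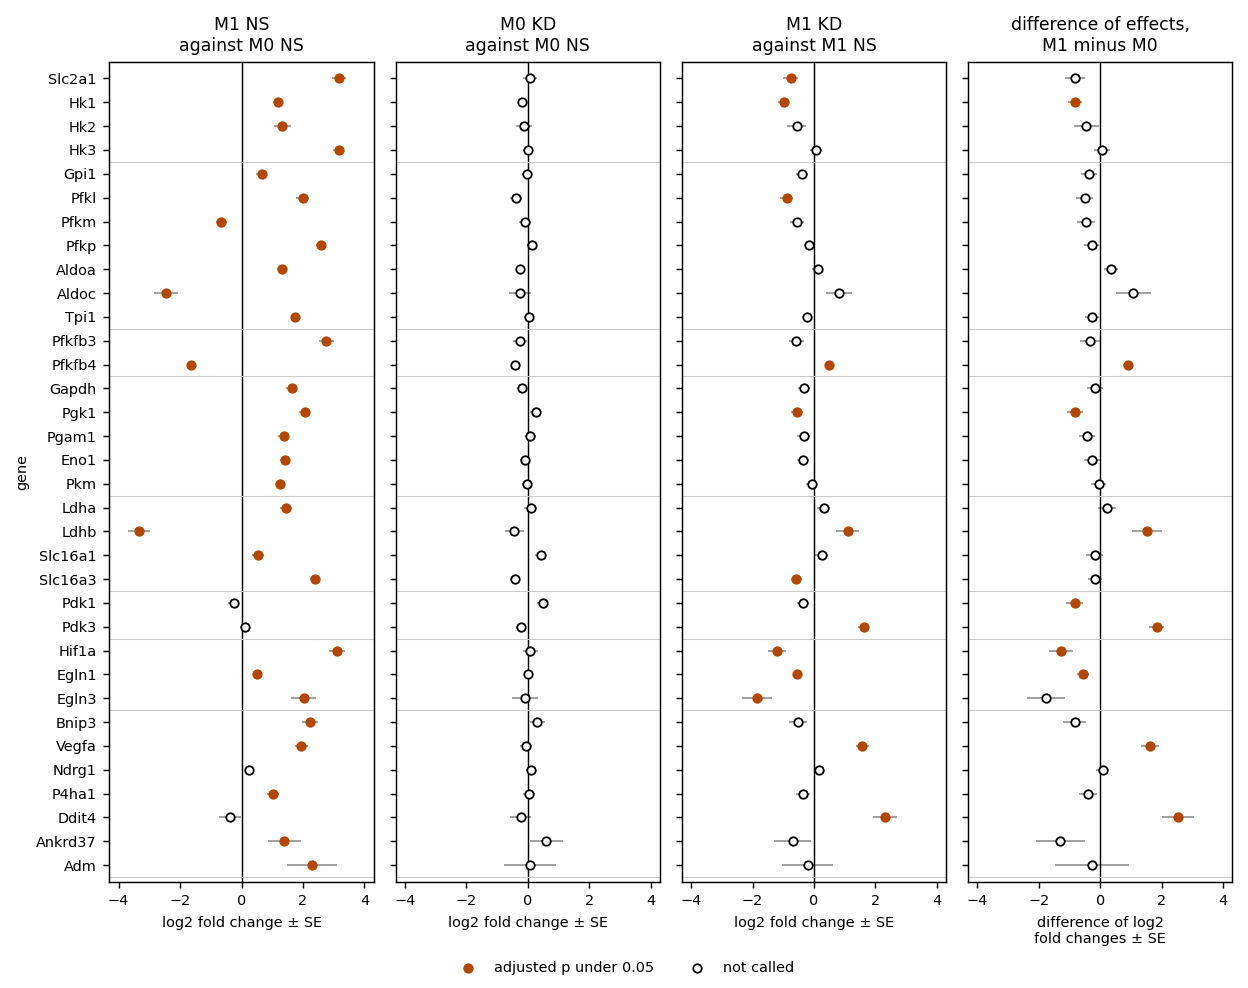
Log2 fold change with its standard error (bars) for each of the 34 genes in the 4 comparisons; filled circles passed an adjusted p under 0.05. Most filled points of M1 NS against M0 NS lie to the right of 0, no point is filled for M0 KD, and the points filled for M1 KD lie on both sides of 0, with Ddit4 farthest right and Egln3 farthest left.

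In M1 cells the same gapmers were compared, and there the set split. Hif1a, its hydroxylases Egln1 and Egln3, the glucose carrier Slc2a1, Hk1, Pfkl, Pgk1 and the lactate exporter Slc16a3 fell, while Ddit4, Pdk3, Vegfa, Ldhb and Pfkfb4 rose. The other 21 genes, with Hk3, Pfkp, Aldoa, Gapdh, Pkm and Ldha among them, did not pass the test. By the same rule 17.6% of all genes were higher, 19.2% were lower and 36.8% were called in either direction, against 5, 8 and 13 of the 34. The share of the 34 genes that changed was thus near that of all genes. The median log2 change was -0.34 for the 34 genes and 0.00 for all genes. CPM ranges did not overlap for 20 of the 34 genes, against 52.4% of all genes. With upper-quartile scaling the median of all genes shifted to 0.15, 3454 of all genes were higher and 2177 lower where TMM gave 2645 and 2890, and the 34 genes split into 5 higher and 5 lower. Each of the 2 M1 KD libraries weighs on the counts: without library 5 there were 2 lower genes, without library 6 there were 4 lower and 3 higher, and without M1 NS 4 there were 5 lower. The same M1 NS libraries enter this comparison and that of M1 NS with M0 NS, so a high value in 1 of them raises the state effect and lowers the gapmer effect.

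Hif1a had 362 and 641 CPM in M1 KD libraries 5 and 6, against 1257, 919 and 1266 CPM in M1 NS. Both knockdown libraries lay below all 3 controls, library 5 further than library 6. The mean fell from 1147 ± 198 (n = 3) to 502 ± 197 CPM (n = 2; log2 change -1.19 with SE 0.29, adjusted p = 0.0074). Without M1 KD 5 the value was -0.85 and no longer passed (adjusted p = 0.0837; 1.96e-07 to 0.0837 over its 23 alternatives). Both libraries were still above each of the 6 M0 libraries. The annotated antisense gene Gm15283 overlaps Hif1a over 330 exonic bases and had a mean count of 72.1 per library against 16137 for Hif1a.

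Egln3 had 2.41 and 2.49 CPM in M1 KD, close to its M0 levels. It fell (log2 change -1.85 with SE 0.48, adjusted p = 0.0102), although the size rests on M1 NS 4, without which the log2 change was -1.01 (adjusted p = 0.0134). The call was lost without M1 KD 5 or M1 KD 6 (adjusted p = 0.0695 and 0.0541; 9.29e-08 to 0.0695 over its 23 alternatives). Egln1 had 38.1 and 42.5 CPM in M1 KD, below each M1 NS library (log2 change -0.55 with SE 0.14, adjusted p = 0.0114), and was not called without M1 KD 5 (adjusted p = 0.0903; 0.00464 to 0.0903 over its 23 alternatives).

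At glucose entry, Slc2a1 had 234 and 241 CPM in the M1 KD libraries, well below the M1 NS libraries and above the M0 libraries. It fell by 0.75 on the log2 scale (SE 0.25, adjusted p = 0.0322). With upper-quartile scaling this call was lost. The call was lost without M1 NS 2, M1 NS 4, M1 KD 5 or M1 KD 6 (adjusted p = 0.0692, 0.0659, 0.136 and 0.106; 0.000883 to 0.136 over its 23 alternatives). Hk1 had 143 and 113 CPM in M1 KD, and its level fell, in library 6 into the M0 range (log2 change -0.99 with SE 0.17, adjusted p = 0.000998). This call held in each of the 23 alternatives run. Hk3, by contrast, had 2472 and 2661 CPM, within the M1 NS range (log2 change 0.07 with SE 0.19, adjusted p = 0.792), and Hk2 had 158 and 93.1 CPM (log2 change -0.57 with SE 0.30, adjusted p = 0.158). Without the filter on low counts, edgeR called Hk2 lower (adjusted p = 0.0142).

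Of the 7 upper glycolytic genes only Pfkl was called, at 188 and 235 CPM in M1 KD (log2 change -0.89 with SE 0.22, adjusted p = 0.00774). Both libraries lay below all M1 NS libraries, and the call was lost without M1 KD 5 (adjusted p = 0.0798; 6.3e-05 to 0.0798 over its 23 alternatives). Pfkp had 380.4 and 425 CPM (log2 change -0.15 with SE 0.18, adjusted p = 0.528) and Aldoa 2620.1 and 2249.5 CPM (log2 change 0.12 with SE 0.17, adjusted p = 0.61), both overlapping the controls. Pfkm was not called (log2 change -0.55 with SE 0.22, adjusted p = 0.0729), but it was without M1 KD 5 (log2 change -0.99, adjusted p = 0.0133; 0.0133 to 0.467 over its 23 alternatives). Aldoc was not called either (log2 change 0.81 with SE 0.43, adjusted p = 0.16), but it was without M1 NS 4 (log2 change 1.61, adjusted p = 0.00301; 0.00301 to 0.82 over its 23 alternatives). Pfkfb4 rose a little, to 30.6 and 35 CPM (log2 change 0.49 with SE 0.12, adjusted p = 0.00766), remained below all M0 libraries, and was not called without M1 KD 6 (adjusted p = 0.0704; 0.000842 to 0.0729 over its 23 alternatives). The Pfkfb4 call was lost as well in a fit of only the groups compared. Pfkfb3 was not called (log2 change -0.57 with SE 0.25, adjusted p = 0.0922), but edgeR called it lower without the filter on low counts (adjusted p = 0.0207).

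In lower glycolysis, 1 of 5 genes was called. Pgk1 had 860.0 and 713 CPM in M1 KD, below the M1 NS libraries (log2 change -0.56 with SE 0.19, adjusted p = 0.0392), and the call was fragile: leaving out M0 NS 1, M0 NS 2, M1 NS 4, M0 KD 1, M0 KD 2, M1 KD 5 or M1 KD 6 ended it, with adjusted p of 0.0593, 0.052, 0.107, 0.0518, 0.0538, 0.0626 and 0.207 (0.0146 to 0.207 over its 23 alternatives). Upper-quartile scaling and a fit of only the groups compared ended the Pgk1 call too. Gapdh (-0.34, SE 0.20), Pgam1 (-0.34, SE 0.20), Eno1 (-0.36, SE 0.19) and Pkm (-0.08, SE 0.17) had log2 changes that did not pass. The sum of the 34 genes was 18306–19309 CPM in M1 KD, against 19039–22095 CPM in M1 NS.

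At the lactate step, Slc16a3 had 259 and 256 CPM in M1 KD, below all M1 NS libraries (log2 change -0.58 with SE 0.18, adjusted p = 0.0236). Its call was lost without M1 NS 4, M1 KD 5 or M1 KD 6 (adjusted p = 0.0642, 0.0946 and 0.0931; 0.0105 to 0.114 over its 23 alternatives). Ldha had 1656 and 1326 CPM and was not called (log2 change 0.31 with SE 0.22, adjusted p = 0.291), but it was called higher without the 3 libraries numbered 4 (log2 change 0.47, adjusted p = 0.0411; 0.0411 to 0.763 over its 23 alternatives). Ldhb rose to 4.53 and 3.69 CPM, still a low level (log2 change 1.09 with SE 0.38, adjusted p = 0.0405). That call was lost without M1 NS 1, M1 NS 2, M0 KD 1, M1 KD 5 or M1 KD 6 (adjusted p = 0.12, 0.108, 0.0545, 0.205 and 0.0756; 6.35e-05 to 0.205 over its 23 alternatives).

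Pdk3, Vegfa and Ddit4 rose in M1 KD, and each of these calls held in all 23 alternatives run. Pdk3 had 49.2 and 59.6 CPM in M1 KD, against 12.0–20.8 CPM in all 9 other libraries, and its mean rose from 17.8 ± 2.81 to 54.4 ± 7.37 CPM (log2 change 1.61 with SE 0.18, adjusted p = 5.43e-05). Vegfa had 843 and 1079 CPM in M1 KD, and both libraries stood far above the highest M1 NS library. Its mean rose from 322 ± 77.7 to 961 ± 167 CPM (log2 change 1.58 with SE 0.22, adjusted p = 0.000248), on top of its higher level in M1 NS than in M0 NS. Ddit4 had 52.1 and 17.9 CPM in M1 KD libraries 5 and 6, which differ widely but both exceed the highest of the 9 other libraries, at 10.6 CPM. It rose from 7.11 ± 1.81 to 35 ± 24.2 CPM (log2 change 2.30 with SE 0.38, adjusted p = 0.000802), and by 1.32 (adjusted p = 0.0165; 8.03e-26 to 0.0165 over its 23 alternatives) without library 5. Pdk1 had 32.4 and 30.9 CPM and was not called (log2 change -0.35 with SE 0.20, adjusted p = 0.194). Bnip3, P4ha1, Ankrd37, Adm and Ndrg1 were not called, with log2 changes of -0.52, -0.37, -0.70, -0.21 and 0.17 and SE of 0.28, 0.22, 0.60, 0.83 and 0.16; Bnip3 was called without M1 NS 2 (log2 change -0.77, adjusted p = 0.0271; 0.0265 to 0.799 over its 23 alternatives). Of the 7 other HIF-1 targets, 2 thus rose in M1 KD, Vegfa and Ddit4, 0 fell and 5 were not called. Of all genes, 36.8% were called in this comparison, so 2 of 7 does not exceed the background. Elsewhere in the set, Hif1a itself, Egln1, Egln3, Slc2a1, Hk1, Pfkl, Pgk1 and Slc16a3 fell, and Pfkfb4, Ldhb and Pdk3 rose. Of these calls, all but those of Hk1 and Pdk3 were lost in some alternatives. Hk2 and Pdk1, also known targets, were not called. Nor were Hk3, Gpi1, Pfkm, Pfkp, Pfkfb3, Aldoa, Aldoc, Tpi1, Gapdh, Pgam1, Eno1, Pkm, Ldha and Slc16a1. What lay behind these changes was not tested.

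**Figure D3:**
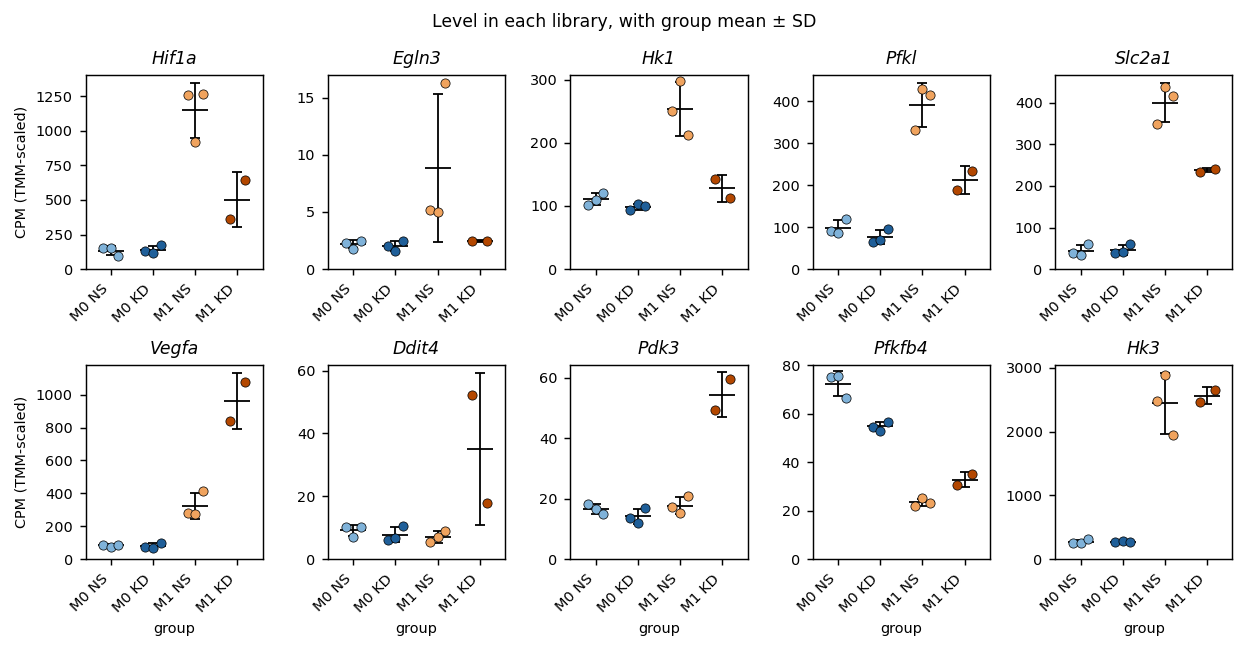
CPM in each library (points) by group for 10 of the 34 genes, with the group mean (long bar) and SD (whiskers; n = 3, and n = 2 for M1 KD). Hif1a, Egln3, Hk1, Pfkl and Slc2a1 are lower in both M1 KD libraries than in all 3 M1 NS libraries, Vegfa, Ddit4, Pdk3 and Pfkfb4 are higher, and Hk3 overlaps.

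The erythroid and megakaryocyte, T and NK and B cell marker sums given above were all higher in both M1 KD libraries than in all M1 NS libraries. Of the markers tested, 1 of 7, 1 of 2 and 1 of 4 in these lists were called, each higher. The neutrophil sum was lower, at 206–225 CPM in M1 KD against 240–313 in M1 NS, with 1 of 10 markers called higher and 2 lower. The dendritic cell sums of M1 KD and M1 NS overlapped, with 1 of 7 markers called higher. The fibroblast and stromal sums overlapped as well. The part of these marker differences in the M1 comparison was not tested. Of the 10 M1 activation markers, 2 were higher and 4 lower in M1 KD, and their sum was 19511–24967 CPM there.

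Whether the gapmer effect differed between the states was tested directly as the M1 effect minus the M0 effect. The difference passed for 10 of the 34 genes, 5 upward and 5 downward, against 13.1%, 14.2% and, in either direction, 27.3% of all genes. Upward were Ddit4 (difference of log2 changes 2.53 with SE 0.52, adjusted p = 0.0044), Pdk3 (1.84 with SE 0.24, adjusted p = 0.000373), Vegfa (1.63 with SE 0.30, adjusted p = 0.00234), Ldhb (1.53 with SE 0.49, adjusted p = 0.036) and Pfkfb4 (0.89 with SE 0.16, adjusted p = 0.00214). Downward were Hif1a (difference -1.28 with SE 0.38, adjusted p = 0.027), Pdk1 (-0.84 with SE 0.27, adjusted p = 0.036), Pgk1 (-0.82 with SE 0.26, adjusted p = 0.0349), Hk1 (-0.81 with SE 0.22, adjusted p = 0.019) and Egln1 (-0.56 with SE 0.19, adjusted p = 0.0463). For Pdk1 and Pfkfb4 the effects in M0 and M1 had opposite signs, 0.49 and -0.35 for Pdk1 and -0.40 and 0.49 for Pfkfb4, of which the Pfkfb4 effect in M1 alone was called. The Egln3, Slc2a1, Pfkl and Slc16a3 differences did not pass (-1.76, -0.82, -0.51 and -0.18; adjusted p = 0.054, 0.0825, 0.209 and 0.615), so their fall in M1 is not shown to differ from the M0 effect. Of these, Egln3 passed without M1 NS 1 (adjusted p = 0.0329) or M1 NS 2 (adjusted p = 0.0217; 0.000316 to 0.145 over its 22 alternatives), and Slc2a1 without M0 NS 4 (adjusted p = 0.0196; 0.0134 to 0.188). Likewise Pfkm passed without M1 KD 5 (adjusted p = 0.047; 0.047 to 0.764), Aldoc without M1 NS 4 (adjusted p = 0.00551; 0.00551 to 0.642) and Bnip3 without M1 NS 2 (adjusted p = 0.0216; 0.00815 to 0.492). With upper-quartile scaling the median of all genes shifted from -0.02 to 0.12, all genes split into 2474 higher and 1705 lower where TMM gave 1965 and 2130, and 2 of the 34 genes were lower; with library totals alone that median shifted to -0.12.

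The upward differences of Ddit4, Pdk3, Vegfa and Pfkfb4 passed in each of the 22 alternatives, and for Ddit4 the value was 1.55 (adjusted p = 0.0268; 5.31e-17 to 0.0268 over its alternatives) without M1 KD 5. The adjusted p of the downward ones and of Ldhb lay between 0.019 and 0.0463, and the differences kept their sign in all 22 alternatives: -1.75 to -0.82 for Hif1a, -0.95 to -0.44 for Pdk1, -0.96 to -0.57 for Pgk1, -0.998 to -0.65 for Hk1, -0.67 to -0.34 for Egln1 and 1.08 to 1.85 for Ldhb. The Hif1a difference was lost without M0 NS 4, M1 NS 1, M0 KD 4 or M1 KD 5 (adjusted p = 0.053, 0.0587, 0.0624 and 0.121; 6.39e-05 to 0.121 over its 22 alternatives), and that of Hk1 without M0 NS 1 or M1 KD 6 (adjusted p = 0.0507 and 0.0815; 0.00646 to 0.0815). The Pgk1 difference was lost without any 1 of M0 NS 1, M0 NS 2, M1 NS 4, M0 KD 4 and M1 KD 6 (adjusted p = 0.0568 to 0.124; 0.0093 to 0.124 over its 22 alternatives). The Pdk1 difference was lost without any 1 of M0 NS 1, 2 or 4, M1 NS 1 or 4, M0 KD 4, M1 KD 5 or M1 KD 6 (adjusted p = 0.055 to 0.102; 0.00752 to 0.102). That of Egln1 was lost without any 1 of M0 NS 1, 2 or 4, M1 NS 4, M0 KD 2 or 4, M1 KD 5 or M1 KD 6 (adjusted p = 0.065 to 0.158; 0.0367 to 0.181). The Ldhb difference, though upward, was lost without any 1 of M0 NS 4, M1 NS 1, M1 NS 2, M0 KD 1, M0 KD 4, M1 KD 5 and M1 KD 6 (adjusted p = 0.0559 to 0.129; 1.27e-05 to 0.129). Without the 3 libraries numbered 4, the differences of Hif1a, Pdk1, Pgk1 and Egln1 did not pass (-0.82, -0.44, -0.57, -0.34; adjusted p = 0.108, 0.0819, 0.0619, 0.181).

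Levels of related enzymes can be set side by side only per length of transcript. CPM was therefore divided by the length of the principal GENCODE M21 transcript and expressed as a share of the family, as a description with no test. Among the hexokinases, Hk3 made up 66.7% ± 0.39 in M0 NS (SD over libraries), 69.2% ± 1.39 in M0 KD, 88.2% ± 2.08 in M1 NS and 93.4% ± 1.84 in M1 KD. It was the leading isoform in all 11 libraries. Among the phosphofructokinase subunits, Pfkm went from 9.37% ± 0.334 in M0 NS to 1.36% ± 0.152 in M1 NS and 1.31% ± 0.596 in M1 KD, while Pfkp went from 36.9% ± 3.54 to 49.7% ± 7.6 and 62.4% ± 1.42. Among the PFKFB enzymes, Pfkfb4 held 52.8% ± 1.34 in M0 NS, 6.02% ± 1.38 in M1 NS and 11.4% ± 0.389 in M1 KD, and Pfkfb3 held 39.8% ± 1.92, 92.3% ± 1.45 and 86.6% ± 1.06. The leading form was thus Pfkfb4 in the M0 NS mean and Pfkfb3 in each M1 library.

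Among the pyruvate dehydrogenase kinases, Pdk3 held 31.2% ± 3.05 in M0 NS, 26.3% ± 1.48 in M0 KD, 49.2% ± 0.497 in M1 NS and 73.3% ± 3.8 in M1 KD. Pdk1 held 36.9% ± 0.528, 50.6% ± 4.28, 45.3% ± 1.23 and 17.5% ± 2.08 in the same order. Lactate dehydrogenase was nearly all Ldha in every group: the Ldhb share was 5.44% ± 1.25 in M0 NS, 0.214% ± 0.0297 in M1 NS and 0.372% ± 0.00488 in M1 KD. Among 3 monocarboxylate transporters, Slc16a3 went from 75% ± 2.74 in M0 NS to 96.7% ± 0.573 in M1 NS. Among the glucose carriers, the share of Slc2a1 was 35.1% ± 14 in M0 NS, 28.8% ± 12.1 in M1 NS and 13.4% ± 1.18 in M1 KD. Slc2a6, a carrier known from lysosomes, held most of the rest, with 71% ± 12.1 in M1 NS and 86.4% ± 1.18 in M1 KD. With the length of all annotated exons in place of the transcript, the Pfkp share was 23.1%, 35.3% and 47.4% in M0 NS, M1 NS and M1 KD and that of Hk1 in M0 NS was 13.2% in place of 22.8%. By that length the Pfkm share was 16.3%, 2.67% and 2.78%, and the Ldhb share was 8.20%, 0.333% and 0.579%, in M0 NS, M1 NS and M1 KD.

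**Figure D4:**
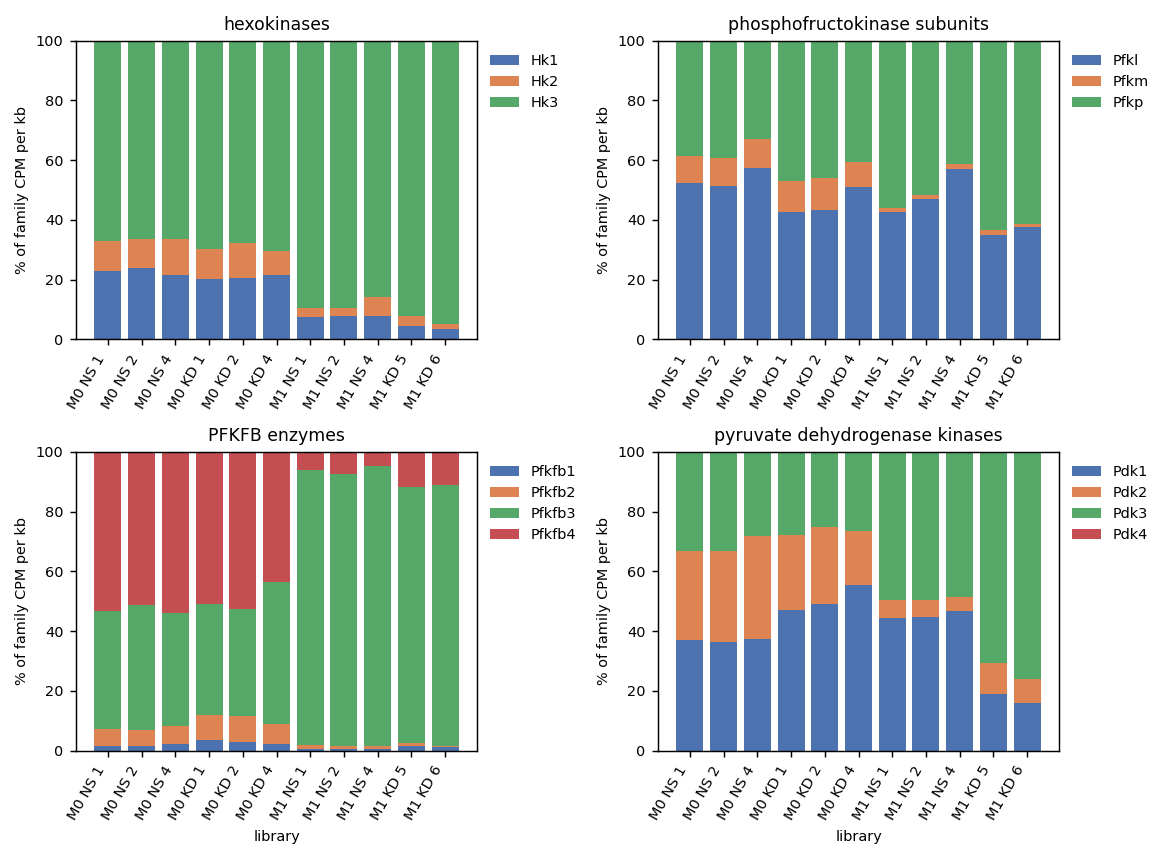
Stacked bars of the share of each isoform in its family's summed CPM per kilobase of transcript, for each of the 11 libraries, in percent from 0 to 100. Hk3 fills most of every hexokinase bar, Pfkfb3 takes over from Pfkfb4 in the M1 bars, and Pdk3 takes the largest part of both M1 KD bars.

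Other genes of the same pathways were read from lists chosen beside the 34. For all the list counts below, the shares of all genes serve as background. In M1 NS against M0 NS, 26.9% of all genes were higher and 28.6% lower. In M1 KD against M1 NS, 17.6% were higher and 19.2% lower. Of 31 further isozymes and carriers listed, 30 were found by name and 20 passed the filter. Of these 20, 2 rose (Pgm2 and Slc2a6) and 13 fell in M1 NS against M0 NS, with a median log2 change of -1.05. Pdk2, a further pyruvate dehydrogenase kinase, had the smallest p among those that fell (log2 change -3.10 with SE 0.15, adjusted p = 1.27e-08), followed by the monocarboxylate carrier Slc16a7 (-2.71) and by Galm (-3.05), which interconverts the ring forms of sugars. In M1 KD against M1 NS, 6 of these 20 rose and 2 fell. Pdk2 rose (log2 change 1.79 with SE 0.16, adjusted p = 1.55e-05), as did Galm (1.69) and the enolase Eno3 (1.37), whereas Pfkfb2 (-1.01) and Bpgm (-0.63), which makes the allosteric effector of haemoglobin, fell.

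Of 9 other oxygen-sensing genes, 5 rose and 1 fell with the M1 state, and 1 rose and 3 fell in M1 KD against M1 NS. Those that fell were Hif1an, the asparagine hydroxylase that inhibits HIF (log2 change -0.71 with SE 0.12, adjusted p = 0.00106), Vhl, which marks hydroxylated HIF alpha for destruction (-0.60), and the hydroxylase gene Egln2 (-0.95). Mxi1, a known HIF-1 target that opposes MYC, rose (log2 change 1.49 with SE 0.17, adjusted p = 8.1e-05). Arnt, which encodes the partner subunit of HIF-1, was not called in either comparison (0.21 and 0.17). Epas1, which encodes HIF-2 alpha, fell with the M1 state (log2 change -3.28 with SE 0.36, adjusted p = 9.21e-06).

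Of 36 further HIF-1 targets tested, 17 rose and 11 fell with the M1 state, with a median of 0.46. Hilpda, a lipid droplet protein, had log2 change 4.84 with SE 0.26, adjusted p = 2.59e-08, and Rab20 (2.31) and Gys1 (1.87), the glycogen synthase gene, also rose. Angptl4 (-6.77), an inhibitor of lipoprotein lipase, Zfp395 (-4.27) and Ppfia4 (-2.77) fell. In M1 KD, 8 of the 36 rose and 7 fell, with a median of -0.31. These counts are near the shares of all genes, 17.6% higher and 19.2% lower. Wsb1 (-1.18 with SE 0.14, adjusted p = 8.24e-05), Gys1 (-1.16 with SE 0.16, adjusted p = 0.000273) and Rbpj (-1.46 with SE 0.25, adjusted p = 0.000911) had the smallest p among those that fell. Rora (1.69 with SE 0.27, adjusted p = 0.000541), Narf (1.10 with SE 0.23, adjusted p = 0.00358) and Hilpda (1.02 with SE 0.24, adjusted p = 0.00546) had the smallest among those that rose.

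In the pentose phosphate pathway, which branches off to make NADPH, 3 of 8 genes rose and 3 fell with the M1 state, and 1 rose and 3 fell in M1 KD. G6pdx, its entry enzyme, rose with the state (log2 change 0.93 with SE 0.15, adjusted p = 0.000215) and was not called in M1 KD (log2 change -0.34 with SE 0.17, adjusted p = 0.137). Of 10 genes that bring pyruvate into mitochondria, 6 rose and 2 fell with the M1 state, and 2 rose and 4 fell in M1 KD. The carrier subunit genes Mpc1 (log2 change 0.69 with SE 0.13, adjusted p = 0.00131) and Mpc2 (0.53) rose in M1 KD. Pdp1, the phosphatase that undoes the action of the kinases, fell (log2 change -1.35 with SE 0.20, adjusted p = 0.000406), as did its regulatory subunit Pdpr (-0.95) and the dehydrogenase subunit genes Dlat (-0.70) and Pdha1 (-0.55).

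Set against both M0 groups, the 2 M1 KD libraries were above all 6 M0 libraries for 21 of the 34 genes (61.8%), against 29.4% of all genes past the filter. They were below all 6 for Pfkm, Aldoc, Pfkfb4, Ldhb and Pdk1 (14.7%), against 34.5% of all genes. For Hk1, Hk2, Gpi1, Slc16a1, Egln1, Egln3, Ankrd37 and Adm they were neither. Libraries within a group also differed for these genes. Library 4 was the highest of its 3 for 23 of the 34 genes in M0 NS (67.6%), 27 in M0 KD (79.4%) and 18 in M1 NS (52.9%), against 39.7%, 39.9% and 40.4% of all genes. In M1 NS, Bnip3 had 92.9, 66.6 and 158 CPM in libraries 1, 2 and 4 and Ankrd37 3.42, 4.24 and 10.3 CPM, highest in library 4, as were Egln3 and P4ha1 (159, 141 and 250.4 CPM). Library 4 was not alone in this in M1 NS. There library 2 was the highest for 16 of the 34 genes (47.1%, against 34.4% of all genes). Library 1 of M1 NS was the highest for 0 and the lowest for 19 (55.9%, against 23.7% of all genes). What sets these libraries apart was not tested.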

How the data were processed

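Total RNA of 11 macrophage libraries was sequenced. Reads were trimmed with Trimmomatic 0.36, aligned to GRCm38 with STAR 2.5.2b and counted with featureCounts of Subread 1.5.2, per the submitters' processing notes; annotation and strand setting: not given in the sources used here. The deposited table holds whole-number counts per gene. A second deposited table of 22812 genes holds signal values, which the file's own numbers show to be the authors' count divided by 1 constant per library. It served for 1 alternative only. A row without a name, at most 0.000305% of the counts of a library, was left out.

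Groups were taken from the labels. Genes were kept by filterByExpr (minimum count 10, minimum total count 15), scaled by TMM (factors 0.825 to 1.19) and tested with edgeR 4.0.16 in R 4.3.3 by the quasi-likelihood F test over all 4 groups in 1 fit, with no covariate. Log2 changes are edgeR's, their SE is the absolute change divided by the square root of F, and p-values were adjusted by Benjamini-Hochberg over 15024 genes, with 0.05 as the threshold. The procedure was tested on simulated data in which a small set of genes was changed in M1 KD and all other genes kept the same mean in every group. It therefore did not imitate the many changes between the groups here. Alternatives used other scalings and filters, DESeq2 1.42.0, limma 3.58.1 (voom, and trend on the deposited values with a pseudocount of 1), a stricter threshold, the label number as a block, and libraries left out. Gene positions and transcript lengths come from GENCODE M21 (build GRCm38); the counting may have used another annotation. Gene levels in CPM carry counting error that depth limits for genes such as Adm, Ankrd37 and Egln3.

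The 34 genes, the other gene lists and the tests were chosen with earlier results of these data known. Library values are printed, per comparison, for the called genes with up to 6 largest rises and 6 largest falls and for genes whose sign goes against their role group, and, of the other lists, up to 3 called genes per direction of smallest p are named. Arnt, Pdha1, the marker genes and some further genes of the 34 given with library values were named outside this rule, after their values were seen.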

Additional observations from a re-analysis of the deposited data

Results flagged for a closer look

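In 10 of the 34 genes the effect of the MERRICAL gapmer differed between M1 and M0 cells by the test of that difference in edgeR, and these are listed for a second look. The difference of log2 changes, M1 minus M0, was 2.53 for Ddit4, 1.84 for Pdk3, 1.63 for Vegfa, 1.53 for Ldhb and 0.89 for Pfkfb4. It was -1.28 for Hif1a, -0.84 for Pdk1, -0.82 for Pgk1, -0.81 for Hk1 and -0.56 for Egln1. In M0 cells none of the 10 was called on its own, and in M1 cells 9 were, all but Pdk1. Of all genes tested, 27.3% passed the same test, so 10 of 34 is near the background. In M1 cells the library numbers differ between the gapmers, and their part in these differences cannot be told apart from that of the gapmer.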

How the results depend on the processing

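No called gene of the 34 changed sign in any alternative. Called in all alternatives were 24 of 30 genes for M1 NS against M0 NS, 4 of 13 for M1 KD against M1 NS and 4 of 10 for the difference of effects. For the other calls the cause was not tested.

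With library totals alone, M1 NS against M0 NS gave 2348 genes higher and 6447 lower. For M0 KD against M0 NS, where edgeR called 0, no filter gave 207 higher and 178 lower, DESeq2 gave 117 and 104 with 1 of the 34 lower, a fit of only those groups gave 545 and 558 with 1 of the 34 lower, and leaving out the 3 libraries numbered 4 together, an alternative chosen after seeing the data, gave 38 and 84. For M1 KD against M1 NS, the lower genes of the 34 numbered 5 with upper-quartile scaling, 3 at an adjusted p under 0.01 and 5 in a fit of only those groups; all genes numbered 1522 higher and 1736 lower at 0.01, and 1558 and 1546 in that fit. For the difference, the lower genes of the 34 numbered 2 with upper-quartile scaling, 8 without a filter, 0 at 0.01 and 2 without the libraries numbered 4; all genes numbered 892 and 1064 at 0.01.

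With 1 library left out at a time, the 34 genes gave 23 to 26 higher and 3 to 4 lower for M1 NS against M0 NS, 3 to 6 higher (lowest without M1 KD 6) and 2 to 8 lower (lowest without M1 KD 5) for M1 KD, and 4 to 6 higher and 1 to 7 lower for the difference. All genes gave 1662 to 3030 higher and 1996 to 2976 lower for M1 KD, and 0 to 1 lower for M0 KD.

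With the label number as a replicate block over 9 libraries, the 34 genes gave 26 higher and 4 lower for M1 NS against M0 NS and 0 for M0 KD against M0 NS, the same counts as without it; M1 KD shares no number with M1 NS and could not be fitted this way. Over all genes, deviations of same-numbered libraries from their group means correlated at -0.115 to 0.135 and those of other numbers at -0.142 to 0.173. With so few libraries per group, these values cannot decide whether the numbers pair libraries. Among the 34 genes, library 4 was more often the highest than among all genes in M0 NS, M0 KD and M1 NS. In M1 NS the same held for library 2. The main fit had no block because the labels do not say what the numbers stand for.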
